A study of Mus musculus with 2 samples.

Results

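The genes described here are 39 markers of retinal glia, blood vessels and the oligodendrocyte lineage, read in sorted ganglion cells of the mouse retina at postnatal day 6. They were chosen by symbol from the 24015 gene symbols of the count files, and all 39 were found. By the cell type each gene is known for, 12 are Müller glia genes, 6 astrocyte genes, 4 oligodendrocyte lineage genes, 7 endothelial genes and 10 mural cell genes. The sorted cells were J-RGCs, a retinal ganglion cell type that carried green fluorescent protein in a transgenic line made for it and was enriched with magnetic beads and flow cytometry. The study has 1 group of 2 libraries, A and B, each from a separate litter of 5 to 6 pooled animals, with no untreated, older or other cell group beside it. The sources used here give no strain, no sex and no name for the transgenic line. Every comparison is therefore between genes, or between these 2 libraries, and a p-value measures counting error between the libraries and no condition.

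Müller glia are the radial glia that span the retina, take up glutamate through Slc1a3 and turn it into glutamine with Glul. Retinal astrocytes enter from the optic nerve over the ganglion cell axons, guided by platelet-derived growth factor A from ganglion cells acting on their receptor Pdgfra. Endothelial cells then spread over the astrocyte network and are covered by mural cells, the pericytes and smooth muscle cells that depend on Pdgfrb. Ganglion cell axons are unmyelinated within the mouse retina, and oligodendrocytes are found in the optic nerve beyond it.

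The gene rows summed to 7916204 reads in library A and to 13744313 in B. Levels are given as CPM, the reads of a gene in every 1000000 gene reads of its library. Detection required 1 CPM or more in each library. The floor of 3 counts, taken for a gene with no read, corresponds to 0.379 CPM in A and 0.218 CPM in B. Paired values below give A before B. For comparison, 16 markers of ganglion cells in general were read, which cannot tell J-RGCs from other ganglion cells. All 16 were above 10 CPM in both libraries, with a median of 385 and 638 CPM. Highest were the neurofilament genes Nefl (3542 and 6087 CPM) and Nefm (1881 and 3160 CPM) and the growth-associated Stmn2 (1649 and 2146 CPM). Of 12 microglia markers 10 were detected, with a median of 28.99 and 36.7 CPM. Among them P2ry12 stood at 85.4 and 85.3 CPM and Csf1r at 80.1 and 87.2 CPM. Rod, bipolar and amacrine markers had medians of 1.14 and 4.15, 11.6 and 3.24, and 0.884 and 4.62 CPM.

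The 39 genes together took 0.0875% of the gene reads of library A and 0.0662% of those of B, and the summed CPM of the 16 ganglion cell markers was 15.9-fold and 28.6-fold theirs. The 83 other glial and vascular genes counted alongside summed to 1616 and 846 CPM, beside 875 and 662 CPM for the 39, so these shares cover the chosen genes and do not measure the share of RNA from those cells. Of the 39 genes 19 were detected in both libraries, or 48.7%, beside 46.8% of all gene symbols, so the share is close to the background. At least 10 CPM in both libraries was reached by 9 of them, or 23.1%, beside 27.8% of all symbols. The 9 were Dkk3, Glul, Vim, Clu, Apoe, Aldoc, Abcc9, Pdgfrb and Cspg4. A further 2 were detected in A alone and 7 in B alone, and 11 in neither. The matching shares over all gene symbols were not computed. Of all symbols 9880 had no count in A and 7419 in B, so a lean to B was not particular to these genes. The genes detected in both libraries were not spread evenly. They were 9 of 10 mural and 6 of 12 Müller glia genes. In the other groups they were 2 of 7 endothelial, 1 of 6 astrocyte and 1 of 4 oligodendrocyte lineage genes. The endothelial genes Pecam1, Cdh5, Flt1 and Tie1 were detected in B alone, so that low share came from library A. The other endothelial and other mural genes counted alongside showed no such gap, with 36.4% and 37.5% detected in both libraries. In these bulk libraries, a smaller number of cells of a type and less RNA per cell cannot be told apart, and which cells gave the reads was not tested.

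**Figure D1:**
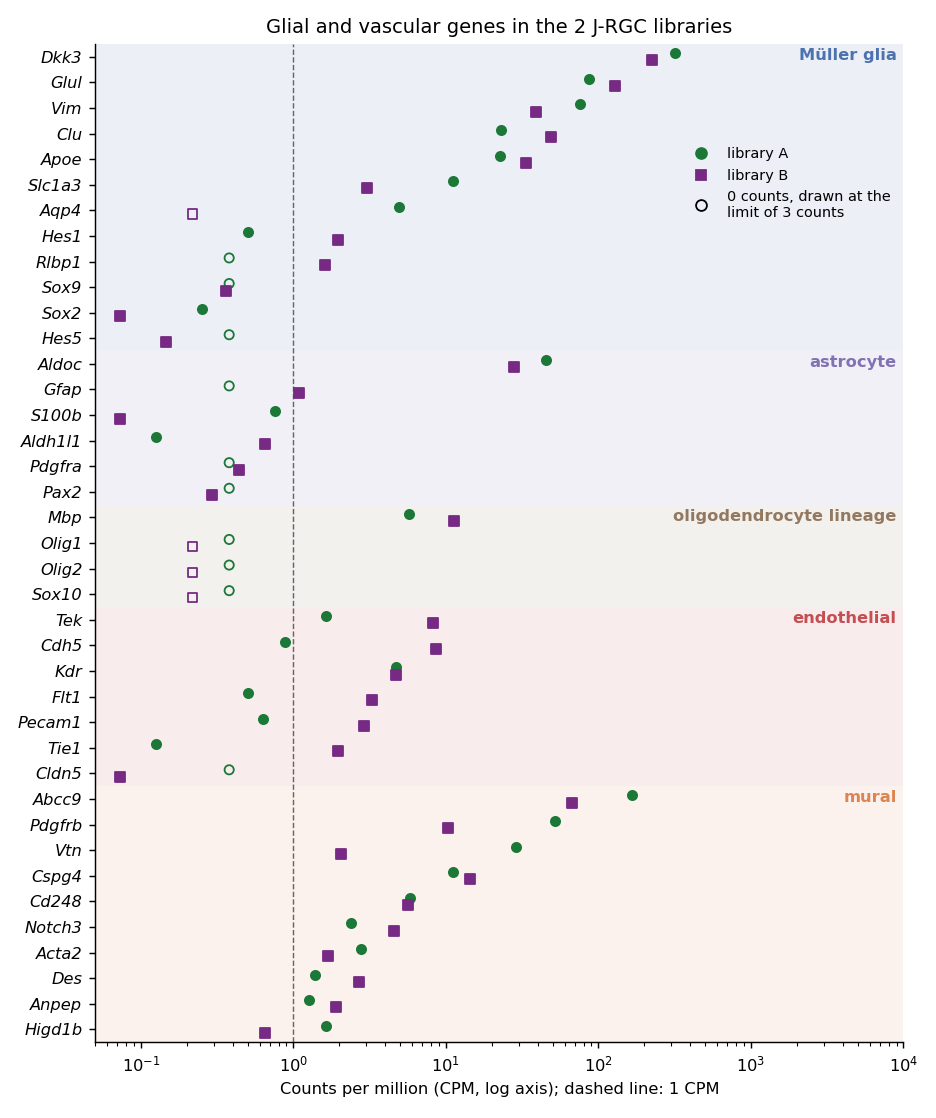
CPM of each of the 39 genes on a log axis, circles for library A and squares for library B, grouped by the cell type the gene is known for; open symbols have no count and stand at the CPM of 3 counts. Dkk3 at 317 and 223 CPM leads the Müller glia genes and Abcc9 at 165 and 66.6 CPM the mural genes, whereas Olig1, Olig2 and Sox10 have no count in either library.

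The Müller glia genes ranged from abundant to near 0. Dkk3, a secreted Wnt modulator, was the highest gene of all 39 at 317 and 223 CPM and alone made up 58.5% and 46.5% of the group's summed CPM. Glul, glutamine synthetase, stood at 87.0 and 129 CPM. The intermediate filament gene Vim stood at 75.9 and 38.7 CPM, the chaperone clusterin (Clu) at 22.99 and 48.9 CPM, and the lipid carrier Apoe at 22.5 and 33.4 CPM. These 5 genes ranked between 563 and 5092 among all symbols in A, and between 856 and 4664 in B. Slc1a3, the glial glutamate transporter, was lower, at 11.1 and 3.06 CPM.

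The other members of the list, which are also standard markers of Müller glia, were lower still. Rlbp1, the retinaldehyde-binding protein of the visual cycle, had 0 counts in A and 22 in B (1.601 CPM). The glial transcription factor Sox9 had 0 and 5 counts and the progenitor and glial factor Sox2 had 2 and 1. The Notch effector genes Hes1 and Hes5 had 4 and 27, and 0 and 2 counts. The water channel gene Aqp4 had 39 counts in A (4.93 CPM) and 0 in B. Per kb of exon, Glul stood at least 204-fold above Rlbp1 in A, where Rlbp1 was taken at the floor of 3 counts for that library, and 71.4-fold above it in B. The median of the 12 genes was 8.02 and 2.51 CPM, beside 5.81 and 8.66 CPM over all genes with a count.

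Only Aldoc, a glycolytic enzyme, was detected among the 6 astrocyte genes. It stood at 45.2 and 28.1 CPM and held 98.1% and 91.7% of the group's summed CPM. Gfap, the astrocyte intermediate filament, had 0 and 15 counts, and the calcium-binding protein gene S100b had 6 and 1. The folate enzyme gene Aldh1l1 had 1 and 9 counts. Pax2, the transcription factor of optic nerve and retinal astrocytes, had 0 and 4 counts, and Pdgfra had 0 and 6, so both stood below 0.5 CPM in both libraries. The median of the group was 0.0632 and 0.546 CPM.

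The oligodendrocyte lineage genes were at 0 apart from Mbp. Olig1, Olig2 and Sox10, transcription factors of the lineage, had no count in either library, which allows up to 0.379 and 0.218 CPM. Mbp, myelin basic protein, stood at 5.68 and 11.3 CPM, from 45 and 155 counts. The Mbp locus also makes Golli transcripts, which are known in neurons, and counts per gene symbol do not separate them. Among 14 other genes of the lineage 3 were detected in both libraries, and the only member above 10 CPM was Ugt8a, a galactolipid-synthesising enzyme, at 20.3 and 18.8 CPM. By the exact binomial test between the libraries described below, 5 of the 9 of these genes with enough counts were higher in B and 1 in A. Over all genes tested, 32.3% were higher in B and 10.3% in A. Those higher in B were the myelin genes Cnp (1.77 and 9.75 CPM), Mog (0.379 and 2.62 CPM) and Mag (0 and 1.02 CPM), the lineage factor gene Myrf (0.379 and 3.42 CPM) and Enpp6 (0.126 and 2.11 CPM), and the claudin gene Cldn11 was higher in A (1.52 and 0.0728 CPM). These 6 were named after their values were seen.

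**Figure D2:**
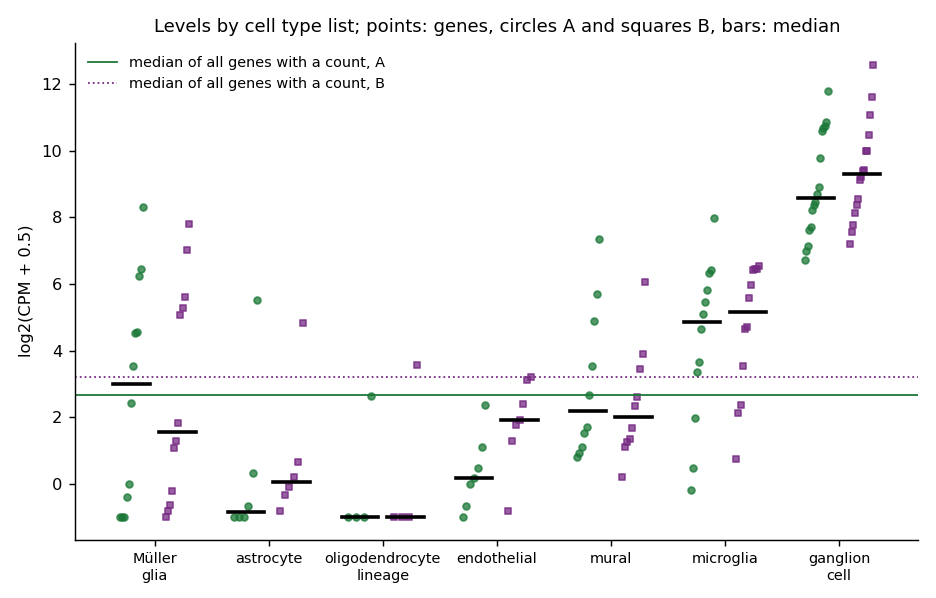
log2(CPM + 0.5) of every gene of the 5 groups and of the microglia and ganglion cell markers, circles for A and squares for B, with black bars at the list medians and horizontal lines at the medians of all genes with a count. The ganglion cell markers lie highest (list medians of 8.59 and 9.32), the microglia markers next (4.87 and 5.15), and the medians of the mural, endothelial, astrocyte and oligodendrocyte groups lie below the all-gene lines in both libraries.

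The endothelial genes were low throughout and differed between the libraries. The vascular endothelial cadherin gene Cdh5 stood at 0.884 CPM in A (7 counts) and 8.66 CPM in B (119 counts). Tek, the angiopoietin receptor, stood at 1.64 and 8.22 CPM, and its relative Tie1 at 0.126 and 1.96 CPM from 1 and 27 counts. Flt1, a receptor for vascular endothelial growth factor, stood at 0.505 and 3.27 CPM, and the junction adhesion molecule gene Pecam1 at 0.632 and 2.91 CPM. These 5 genes were all higher in B. Kdr, the main signalling receptor for vascular endothelial growth factor, was at 4.67 and 4.73 CPM. Cldn5, the tight junction claudin of the blood-retina barrier, had 0 counts in A and 1 in B. The group's summed CPM was 8.46 in A and 29.8 in B, and without Kdr it was 3.79 and 25.1.

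The sequences before the start sites of Tek, Tie1 and Flt1, 3 endothelial receptor genes called higher in B by the binomial test, are shown. They were chosen by that direction, and edgeR's exact test, described below, kept none of these calls. They are shown because ETS-family transcription factors, which bind GGAA cores, are known regulators of endothelial genes. Each run gives the 250 bases before the RefSeq start site, 5′ to 3′ on the gene's strand, with build GRCm38.p6 coordinates, which differ from the mm9 build of the counts. Capitals mark the hexamer AGGAAG on either strand.
Tek, chr4:94739039-94739288, plus strand: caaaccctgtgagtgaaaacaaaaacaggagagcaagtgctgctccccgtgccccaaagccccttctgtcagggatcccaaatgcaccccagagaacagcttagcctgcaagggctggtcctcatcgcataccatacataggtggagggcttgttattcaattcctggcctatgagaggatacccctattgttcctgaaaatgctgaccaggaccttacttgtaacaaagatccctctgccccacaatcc
Tie1, chr4:118489850-118490099, minus strand: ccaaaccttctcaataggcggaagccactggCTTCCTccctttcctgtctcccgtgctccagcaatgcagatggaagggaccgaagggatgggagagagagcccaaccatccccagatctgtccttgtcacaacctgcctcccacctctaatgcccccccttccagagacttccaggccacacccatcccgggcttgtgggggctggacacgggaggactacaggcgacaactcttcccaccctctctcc
Flt1, chr5:147726012-147726261, minus strand: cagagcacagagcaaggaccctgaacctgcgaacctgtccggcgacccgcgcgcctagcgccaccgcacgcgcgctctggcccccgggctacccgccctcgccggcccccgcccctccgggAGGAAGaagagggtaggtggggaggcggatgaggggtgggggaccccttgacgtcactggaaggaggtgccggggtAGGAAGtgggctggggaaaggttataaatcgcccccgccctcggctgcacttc
The hexamer occurred 2 times in the Flt1 window, starting 129 and 53 bases before the start site, 1 time in that of Tie1, on the other strand, and not in that of Tek. Of the 5 endothelial genes with a known promoter window, 2 held it, beside 29.5% of all 32851 promoter windows of the same length. Kdr and Cldn5, also among the 5, held no match and are not shown. GGAA cores outside the hexamer were not marked, and all 3 printed windows, that of Tek included, hold such cores on 1 strand or the other. A match describes these letters only and says nothing of binding.

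Mural genes were the most widely detected group, with 9 of 10 genes at 1 CPM or more in both libraries. Abcc9, the sulphonylurea receptor subunit of the pericyte potassium channel, was highest at 165 and 66.6 CPM and held 60.6% and 60.2% of the group's sum. Pdgfrb, the pericyte growth factor receptor, stood at 51.9 and 10.3 CPM, and Vtn, the matrix protein vitronectin, at 28.9 and 2.04 CPM. The proteoglycan gene Cspg4 (NG2) stood at 11.1 and 14.5 CPM. The remaining members were low: the endosialin gene Cd248 at 5.81 and 5.60 CPM, the receptor gene Notch3 at 2.40 and 4.58, smooth muscle actin (Acta2) at 2.78 and 1.67, desmin (Des) at 1.39 and 2.69, the aminopeptidase gene Anpep at 1.26 and 1.89, and Higd1b at 1.64 and 0.655 CPM. The group's median was 4.295 and 3.64 CPM.

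The 10 mural genes summed to 272 CPM in A and 111 CPM in B. Per kb of exon, the mural sum was 40.9-fold the endothelial sum in A and 3.18-fold in B, and without length correction 32.1-fold and 3.70-fold.

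For each gene the counts in B were tested against those in A with an exact binomial test, two-sided and adjusted by Benjamini-Hochberg over the 14107 genes with at least 10 counts, and called at an adjusted p under 0.05 with at least a 2-fold difference. Over those genes the median log2 difference of B over A was 0.53, and 32.3% were called higher in B and 10.3% higher in A, so the scale itself leans to B. Of the 39 genes 29 had enough counts, with 9 (31.0%) called higher in B and 5 (17.2%) in A; the first share is close to the background. The calls fell in different groups. Of 6 endothelial genes tested 5 were higher in B and none in A, whereas of 10 mural genes 3 were higher in A and none in B. The median log2 difference was 1.94 for the endothelial genes tested and -0.32 for the mural genes. The wider lists described below did not show this split. The median was 0.39 for the 12 other endothelial genes tested and 0.62 for the 12 other mural genes, beside 0.53 for all genes. For the 9 other oligodendrocyte lineage genes tested it was 1.60. Of these 9 genes 5 were also higher in B, and their part in the endothelial difference was not tested.

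The individual differences had wide counting intervals where counts were few. By the exact binomial test Cdh5 was 9.79-fold higher in B (95% interval 4.61 to 24.9, adjusted p = 2e-15). Tek was 5.01-fold higher in B (2.81 to 9.69, exact adjusted p = 1.2e-10). Flt1 was 6.48-fold (2.36 to 24.8), Pecam1 4.61-fold (1.82 to 15.0) and Tie1, on 1 count in A, 15.6-fold higher in B (2.56 to 637). Kdr had a B over A ratio of 1.01 (0.666 to 1.56), and with TMM and DESeq2 scaling its log2 difference was -0.33 to -0.42. In the other direction, Vtn was 14.2-fold higher in A (9.57 to 21.8, exact adjusted p = 1.9e-67), Pdgfrb 5.03-fold (4.14 to 6.13) and Abcc9 2.47-fold (2.27 to 2.70). Aqp4, with no count in B, was 22.6-fold higher in A with B taken at the floor of 3 counts, and its 95% counting interval began at 17.5-fold. Slc1a3 was 3.64-fold higher in A (2.49 to 5.39). Clu (2.13-fold) and Hes1 (3.89-fold) were higher in B. Rlbp1 and Gfap, with no count in A, were 4.22-fold and 2.88-fold higher in B with A taken at that floor, and their intervals began at 3.15-fold and 2.07-fold.

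These intervals hold counting error only. With the spread between the libraries included, as edgeR's biological coefficient of variation of 0.507, the exact test of edgeR kept 2 of the 14 calls, Aqp4 (adjusted p = 0.017) and Vtn (adjusted p = 0.042), both higher in A, and 0 in B, beside 0.957% of all genes tested called higher in A and 1.21% in B; at an unadjusted p under 0.05 there were 3 in each direction. Over the alternatives the adjusted p ran from 2e-20 to 0.017 for Aqp4 and from 3.9e-88 to 0.042 for Vtn, edgeR's exact test giving the highest. That variation was estimated from the same 2 libraries. With TMM scaling, which moved the log2 differences by -0.38, and by less where the pseudocount weighs on genes near 0, the background was 23.1% higher in B and 14.8% in A, the 5 endothelial and 3 mural calls remained, Clu and Hes1 lost theirs, and Vim, Aldoc and Higd1b were added in A.

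**Figure D3:**
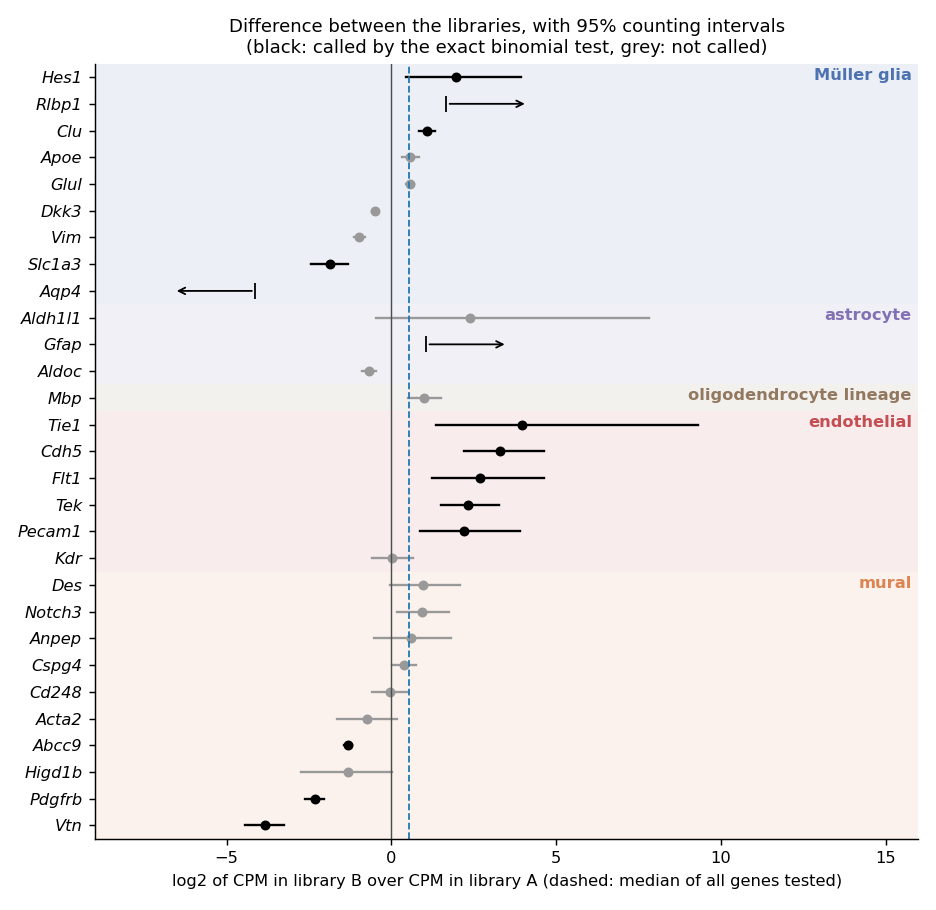
log2 of CPM in B over CPM in A for the 29 genes tested, with 95% counting intervals as bars; arrows start at the interval's bound where a library had no count, and the dashed line is the all-gene median of 0.53 (computed with a pseudocount of 0.5). Of the endothelial genes 5 lie to the right and Kdr at 0, while Abcc9, Pdgfrb and Vtn lie to the left.

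Levels of different genes were compared per kb of summed exon length. Dkk3 was first in both libraries, at 94.4 and 66.5 CPM per kb, and Glul second, at 26.2 and 38.7 CPM per kb, with no overlap between the 2 genes. Below them the order was not stable. Abcc9 ranked 3 in A (19.7 CPM per kb) and 7 in B (7.95), Vtn 5 in A (14.3) and 14 in B (1.00), and Clu 9 in A (6.69) and 4 in B (14.2). Vim at 16.0 and 8.16, Aldoc at 13.9 and 8.61, and Apoe at 10.5 and 15.6 CPM per kb overlapped one another. Among endothelial genes Kdr was highest per kb in A, at 0.518 beside 0.524 in B, and Cdh5 in B, at 2.06 beside 0.210 in A. Mbp stood at 0.671 and 1.33 CPM per kb. Over all genes with a count the median was 1.52 and 2.29 CPM per kb.

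Other genes known from the same cell types were counted alongside, 83 in all. Of these 30 were detected in both libraries, or 36.1%, beside 46.8% of all gene symbols. Of 21 other Müller glia genes 8 were detected, led by the matrix glycoprotein gene Sparc at 649 and 90.4 CPM, the taurine transporter gene Slc6a6 at 112 and 118, the receptor gene Gpr37 at 39.0 and 48.0 and the factor gene Nfia at 28.0 and 30.2 CPM. The 3 genes with no count were Rgr, Id1 and Espn, named after their values were seen. Of 10 other astrocyte genes 5 were detected, among them Ndrg2 at 169 and 138 CPM and the glutamate transporter gene Slc1a2 at 49.1 and 77.7 CPM. Per kb, Slc1a2 stood 2.87-fold and 16.5-fold above its relative Slc1a3. Of 22 other endothelial genes 8 were detected. A single gene was above 10 CPM in each library, the glucose transporter gene Slc2a1 at 16.8 and 15.2 CPM. Of 12 tested, 5 were higher in B and 1 in A by the binomial test, beside 32.3% and 10.3% of all genes tested. Their median log2 difference of 0.39 was below the 0.53 of all genes tested.

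Of 16 other mural genes 6 were detected, or 37.5%, beside 46.8% of all gene symbols. Rgs5, a pericyte regulator of G protein signalling, stood at 342 and 82.4 CPM, and the proteoglycan gene Bgn at 28.2 and 35.9 CPM. The T-box gene Tbx2 stood at 20.97 and 22.9 CPM and the adhesion molecule gene Mcam at 13.0 and 24.5 CPM. Kcnj8, which encodes the channel partner of Abcc9 and was picked out after its values were seen, stood at 9.98 and 2.76 CPM. Rgs5 and Kcnj8 were higher in A, as Abcc9 and Pdgfrb were, with the smooth muscle gene Tagln. Another 5 of the 12 tested were higher in B, among them the fibrillar collagen genes Col1a2 (0.379 and 9.90 CPM) and Col3a1 (1.01 and 4.73 CPM) and the smooth muscle myosin gene Myh11 (0.126 and 2.84 CPM), also picked out afterwards. Over all genes tested, 32.3% were higher in B and 10.3% in A by the same binomial test, so the scale itself leans to B. The mural and perivascular genes thus did not move one way between the libraries by this test.

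Ligands for the glial and vascular receptors were read as well, and several stood above their receptors per kb. Pdgfa, the growth factor that acts on Pdgfra, stood at 43.3 and 36.96 CPM (13.9 and 11.8 CPM per kb), while Pdgfra had 0 and 6 counts (0.0436 CPM per kb in B). Vegfa stood at 30.6 and 19.8, Vegfb at 48.4 and 35.8 and Vegfc at 9.35 and 6.40 CPM. The angiopoietin genes Angpt1 and Angpt2 stood at 12.8 and 8.73, and 1.39 and 6.69 CPM. The Notch ligand genes Jag1 and Jag2 stood at 5.05 and 1.24, and 5.56 and 17.2 CPM. These were the 8 of 15 ligands detected in both libraries, or 53.3%, beside 46.8% of all gene symbols. Pdgfb, the ligand of Pdgfrb, was below 1 CPM in A, at 0.632 and 1.89 CPM. By the binomial test Angpt2 and Jag2 were higher in B and Jag1 in A, and the other 5 detected ligands were not called. Among ligands not detected in both libraries, Pdgfb, Pdgfc (0 and 3.35 CPM) and Dll3 (0.379 and 1.38 CPM) were also higher in B. Of 12 ligands tested, 5 were thus higher in B and 1 in A, beside 32.3% and 10.3% of all genes tested.

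**Figure D4:**
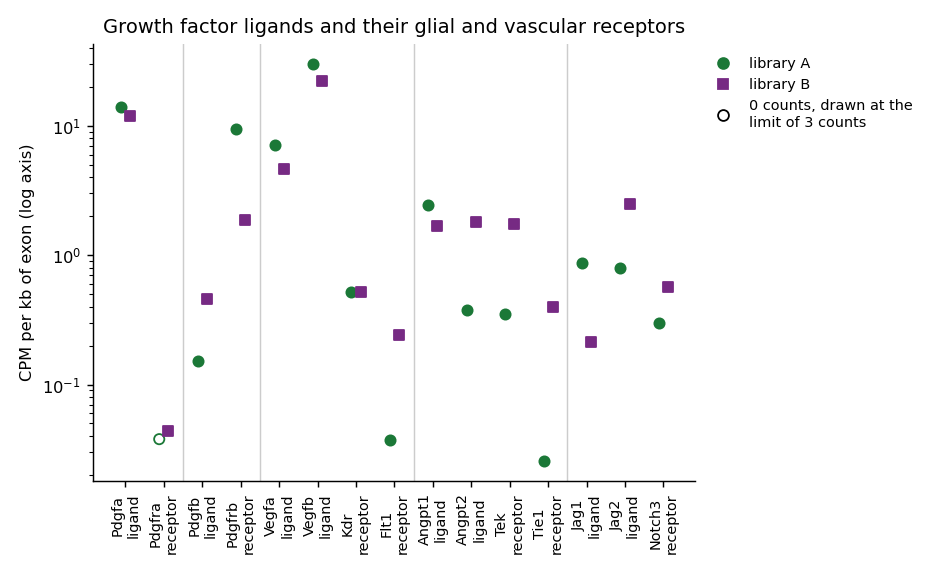
CPM per kb of exon on a log axis for ligands and the receptors among the 39 genes, circles for A and squares for B, with the open symbol at the limit of 3 counts. Pdgfa, Vegfa and Vegfb lie above Pdgfra, Kdr and Flt1 in both libraries, whereas Pdgfrb lies above Pdgfb.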

How the data were processed

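RNA of sorted J-RGCs was extracted with PicoPure columns and made into libraries with the Nugen Ovation Ultralow V2 kit, per the labels' protocols. The authors deposited whole-number counts per gene symbol. Trimmomatic 0.32, TopHat2 2.0.10, HTSeq 0.6.1 and mm9 are named, per the submitters' processing notes; annotation, settings and use of strand: not given in the sources used here. HTSeq summary lines were left out: 26.8% of listed reads in A and 30.9% in B were in genes.

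From the counts, CPM, log2(CPM + 0.5), exact two-sided binomial tests (smaller tail doubled; Benjamini-Hochberg over genes with at least 10 counts), Clopper-Pearson 95% intervals of ratios and CPM per kb were computed with Python 3.11.15, numpy 2.4.6, pandas 2.3.3 and scipy 1.17.1. edgeR 4.0.16 (R 4.3.3) gave TMM factors, the common dispersion of an intercept-only fit and an exact test, and DESeq2 1.42.0 size factors. With 1 group, edgeR's quasi-likelihood test had no contrast. Exon lengths came from GENCODE M21 and promoters from RefSeq, matched by symbol (39 and 26 of the 39 genes); both are on GRCm38. In M21 the exons of 8 of the 39 genes overlap another gene, none of which, where listed in the files, had more than 1 count.

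Reads carry no molecular identifiers, so intervals and floors cover counting error only. Tests were checked on simulated data, but no outcome is reported here and the calls above do not rest on it. The 39 genes and all lists were chosen with earlier results of these data known. All 39 are accounted for. Of the other lists the text names up to 4 genes above 10 CPM in both libraries, every ligand detected, and the 3 highest ganglion cell and microglia markers; for rod, bipolar and amacrine markers these included Pde6b and Nr2e3 (8.53 and 7.00 mean CPM), Isl1, Prkca and Grm6 (147, 113 and 48.5) and Gad2, Tfap2b and Tfap2a (57.6, 36.6 and 16.6). Some genes that this rule names are not reported here.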

Additional observations from a re-analysis of the deposited data

How the results depend on the processing

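Of the 39 genes 19 were detected in both libraries at 1 CPM, 11 at a minimum of 5 CPM and 24 at 0.5 CPM; considering a single library, 26 reached 1 CPM in B and 21 in A. Of the 98 other glial, vascular and ligand genes 38 were detected, and 24 at 5 CPM. The calls between libraries moved most with the spread allowed: edgeR's exact test with its dispersion gave 2 higher in A and 0 in B, against 5 and 9 by the binomial test, where TMM and DESeq2 scaling gave 8 in A each and 7 in B. Over all genes tested the shares in A and B were 0.957% and 1.21% by edgeR's exact test and 10.3% and 32.3% by the binomial test. They were 14.8% and 23.1% with TMM scaling, and 16.2% and 21.1% with DESeq2 scaling. No difference changed sign among the members called.

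Group medians on the log2(CPM + 0.5) scale depended on members near 0. The Müller glia median of 2.28 ± 1.01 (SD, n = 2) was 4.80 with members of at least 10 counts and 0.46 per kb. The endothelial median of 1.05 ± 1.23 was -0.39 per kb. The mural median of 2.10 ± 0.12 was 0.76 per kb, 1.95 with a pseudocount of 0.1 and 2.26 with 1. The astrocyte median of -0.39 ± 0.63 was -1.69 and 0.36 with those pseudocounts. The oligodendrocyte lineage median, which is a gene with no count, was -3.32 and 0 with them, against -1 at 0.5, and 3.09 where Mbp alone was left. With the longest transcript as the length, an alternative chosen after seeing the data, Mbp stood at 1.77 CPM per kb in place of 1.00. Fewer than 10 counts in all kept 10 of the 39 genes out of the test, and a gene with no read may stand at up to 0.379 CPM in A.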
